A study of Mus musculus with 12 samples.

Results

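Genes of the cytosolic ribosome were followed across the 4 Foxo1 genotypes of a murine lymphoma line. Members were all genes whose array symbol begins with Rpl or Rps and a digit, together with Rplp0, Rplp1, Rplp2 and Rpsa. Genes of the Rps6k kinases, pseudogenes and probe sets that name several genes were left out. This rule found 50 genes among the 18193 that a probe set names alone. It uses no measured value beyond the brightest probe set of each gene, but was set with earlier results of these data known. Of the 50, 46 passed the filter on dim genes, as did 11457 genes in all. The 46 hold 20 proteins of the large (60S) subunit, Rplp0 and Rplp2 of its stalk, 20 proteins of the small (40S) subunit, the paralogs Rpl22l1, Rps27l and Rpl7l1, and Rps19bp1. The last is a nucleolar protein that binds Rps19 and is no ribosomal protein itself. The 4 members that did not pass were Rps16 and the paralogs Rpl39l, Rpl3l and Rps4l, whose signals over the 12 arrays lay between 3.74 and 5.60 (log2). Other ribosomal proteins, among them Rpl5, Rplp1, Rpl3, Rpl10 and Rps12, are read only by probe sets that also name pseudogenes or other genes. They are not members here, so the members are only a part of the cytosolic ribosome.

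The cells were BL#19, a murine Burkitt lymphoma (BL) line with 1 normal Foxo1 allele (wt) and 1 mutant allele (mt) that encodes T24P, and CRISPR/Cas9 was used to remove either or both. Each of wt+/mt+, wt-/mt+ (only the mutant allele), wt+/mt- (only the wild-type allele) and wt-/mt- (neither) was measured on 3 arrays. The labels name no treatment and leave unsaid if the 3 arrays of 1 genotype are separate clones, cultures or repeats. A single clone may therefore stand for a genotype, and the spread behind each p-value is that of these arrays alone and may be technical. In bulk RNA, fewer cells that express a gene and less RNA per cell cannot be told apart.

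Ribosomal proteins coat the ribosomal RNA and are made in near equal amounts, so their genes are usually transcribed as 1 coordinated, very abundant group. Their mRNAs begin with a pyrimidine tract (the 5' TOP motif) through which mTORC1, the growth kinase downstream of PI3K and AKT, controls their translation more than their amount. FOXO factors are held back by the same PI3K and AKT signals, and MYC, the oncogene of Burkitt lymphoma, drives the genes that build ribosomes. A few ribosomal proteins have paralogs that differ in regulation: Rpl22l1 is a close copy of Rpl22, a protein known for its part in lymphocyte development, and Rps27l is a close copy of Rps27 and a target of p53.

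The Foxo1 transcript was lowest in wt-/mt-, at 9.99 ± 0.52 (log2 signal, SD, n = 3), against 11.64 ± 0.077 in the unedited wt+/mt+ cells. With only the mutant allele it was 11.46 ± 0.26, and with only the wild-type allele 11.87 ± 0.26. In wt-/mt- it fell by 1.65 on the log2 scale (SE 0.23, limma adjusted p = 0.00122). Where the gene was cut is not given in the sources used here. This reading checks the label of wt-/mt- only in part and does not check the single losses. The arrays of wt-/mt- also stood apart in their spread, with a median SD over kept genes of 0.261, while the other genotypes had 0.0952 to 0.133. Among members the median SD was 0.0794 there and 0.0309 to 0.0400 elsewhere. The spiked control bioD averaged 13.29 on the 6 mt- arrays and 13.96 on the 6 mt+ arrays, and the log2 signal of actin near its 3' end exceeded that near its 5' end by 2.17 and 1.71 in replicates 1 and 2 of wt+/mt-, and by at most 1.29 on the other arrays. In wt+/mt+, the signals of 7 B cell markers ran from 7.46 (Pax5) and 8.04 (Cd79a) to 14.26 (Cd79b) and 14.84 (Ms4a1). After loss of both alleles 4 of the 7 (Blk, Cd79b, Cd22 and Ebf1) fell, against 9.94% of all kept genes. The calls of Cd22 and Ebf1 ended when each genotype had its own weight (adjusted p = 0.06 and 0.0759). The T cell, myeloid, stromal and erythroid lists passed the filter with 3 of 5, 2 of 5, 1 of 4 and 0 of 2 genes on the array. Their part in the results below was not tested, and the largest wt+/mt+ signal among the passing genes was 7.17, of Adgre1.

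Most members sat near the top of the range these arrays can report. The highest value on any array lay between 15.49 and 15.57, and between 32 and 34 of the 46 members lay within 1 log2 unit of their own array's maximum. The signal is that of a probe set and does not rank the genes by RNA amount. The 3 brightest were Rps3a1, a protein of the small subunit, Rplp2, a protein of the stalk that recruits translation factors, and Rpl41, the smallest ribosomal protein. Their 12 values spanned only 15.32 to 15.44, 15.34 to 15.43 and 15.33 to 15.42. The dimmest that passed were Rpl39 at 7.17, Rpl27a at 9.21 and Rps27 at 9.43 (means of 12 arrays).

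For the 34 members with a mean of 14 or more, a level picked after the data were seen, the median range over 12 arrays was 0.206 and 0 were called in the F test over the 4 genotypes or after loss of both alleles. Among the 79 other genes at that level the median range was 0.508, and 14 were called after loss of both alleles. At a mean of 15 or more the 25 members had a median range of 0.148 and the 7 other genes one of 0.211, with 0 called in either set. For the 12 dimmer members the median range was 0.818, close to the 0.827 of the 11332 other genes below 14. Whether a change in the RNA of the brightest members would still move their signal was not tested.

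**Figure D1:**
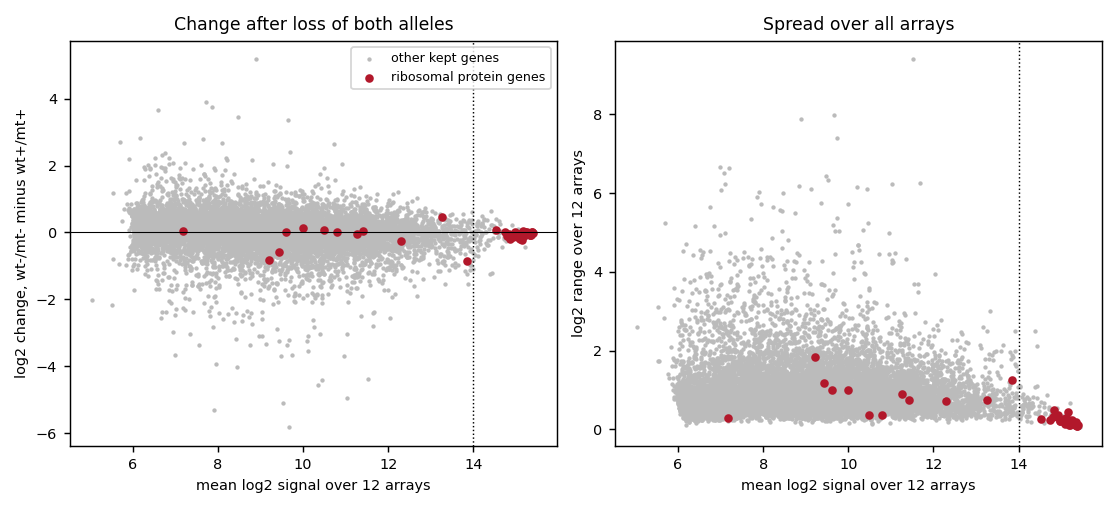
Left, log2 change in wt-/mt- against wt+/mt+, and right, the range over 12 arrays, both plotted against the mean log2 signal of each of 11457 kept genes (grey) with the 46 members in red. Most members crowd at the right edge, beyond the dotted line at 14, where their changes lie near 0 and their ranges are small.

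After loss of both Foxo1 alleles the signals of most of this group stayed within a narrow band. The few members called are paralogs or are read by dim probe sets. The paralog Rps27l rose and its partner Rps27 fell, and Rpl22l1 and Rpl27a, a protein of the large subunit, fell. These 4 of 46 members (8.70%) were called by limma at an adjusted p under 0.05, against 22.1% of all kept genes. Members that rose numbered 1, against a background of 12.2%, and 3 fell, against 9.94%. The median change of the 46 was -0.052 (log2), against 0.051 for all kept genes, and it was -0.0085 without wt-/mt- replicate 3. In either direction, 41 of the 46 changed by less than 0.25. Of the 46, 30 had a change below 0, against 5108 of the 11457 kept genes. An unadjusted p under 0.05 was found for 6 members, against 4379 of the kept genes. In 18 members (39.1%) the 3 arrays of wt-/mt- did not overlap those of wt+/mt+, 14 lower and 4 higher, a share near the 38.4% of all kept genes. With 1 weight per genotype, which lets wt-/mt- have its own wider spread, Rpl22l1 alone was called, against 7.56% of all kept genes. Without wt+/mt+ replicate 1, 2 or 3, 2 members were called each time, Rpl22l1 and Rps27l.

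The members of the large subunit had a median change of -0.041 after loss of both alleles and those of the small subunit one of -0.058, with 1 of 20 called in each. In the stalk, Rplp0, to which the other stalk proteins bind, changed by -0.051 (SE 0.077, limma adjusted p = 0.652) and Rplp2 by 0.020 (SE 0.077, adjusted p = 0.868). Rpl11, which with Rpl5 and the 5S RNA restrains MDM2 when ribosome assembly fails, changed by -0.051 (SE 0.085, adjusted p = 0.690). Rps19 and Rps14, whose loss underlies human ribosome disorders, changed by -0.13 (SE 0.098, adjusted p = 0.359) and -0.059 (SE 0.080, adjusted p = 0.612). Rpsa, a small subunit protein also known as a laminin receptor, changed by 0.0080 (SE 0.082, adjusted p = 0.956). None of these passed the test, and the lowest bound at 2 SE among them was the -0.33 of Rps19.

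Rps6, the small subunit protein that S6 kinase phosphorylates, is read by a dimmer probe set and varied more. Its signals were 11.65, 11.05 and 10.76 in the 3 arrays of wt-/mt- and between 11.16 and 11.25 in wt+/mt+. The wt-/mt- arrays lay on both sides of the others, and the change was -0.059 (SE 0.18, limma adjusted p = 0.836). Rpl12, at the base of the stalk, showed the same kind of split, with 10.12, 9.99 and 9.11 in wt-/mt- (mean 9.74 ± 0.55, SD, n = 3) against 9.74 ± 0.11 in wt+/mt+.

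Among bright members, the largest changes after loss of both alleles were those of Rps7 (-0.22, SE 0.099, limma adjusted p = 0.134), a small subunit protein, and Rps9 (-0.20, SE 0.090, adjusted p = 0.128). Rpl7, of the large subunit, changed by -0.19 (SE 0.078, adjusted p = 0.0946). Their groups did not overlap, and none passed the test. Rps7 lies on chromosome 12, where the median over 416 kept genes was -0.66 in wt-/mt- replicate 1 relative to the wt+/mt+ mean, and 0.032 and -0.036 in replicates 2 and 3. Rps7 itself read 14.80 in that array, against 15.17 and 15.01 in the other 2. Rpl7 lies on chromosome 1, where the median over 646 kept genes was -0.31 in the same array and -0.0082 and 0.039 in the others. Rpl7 read 14.91 there, its lowest value in the 3 arrays of wt-/mt-. The part of the chromosomes in these values was not tested.

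**Figure D2:**
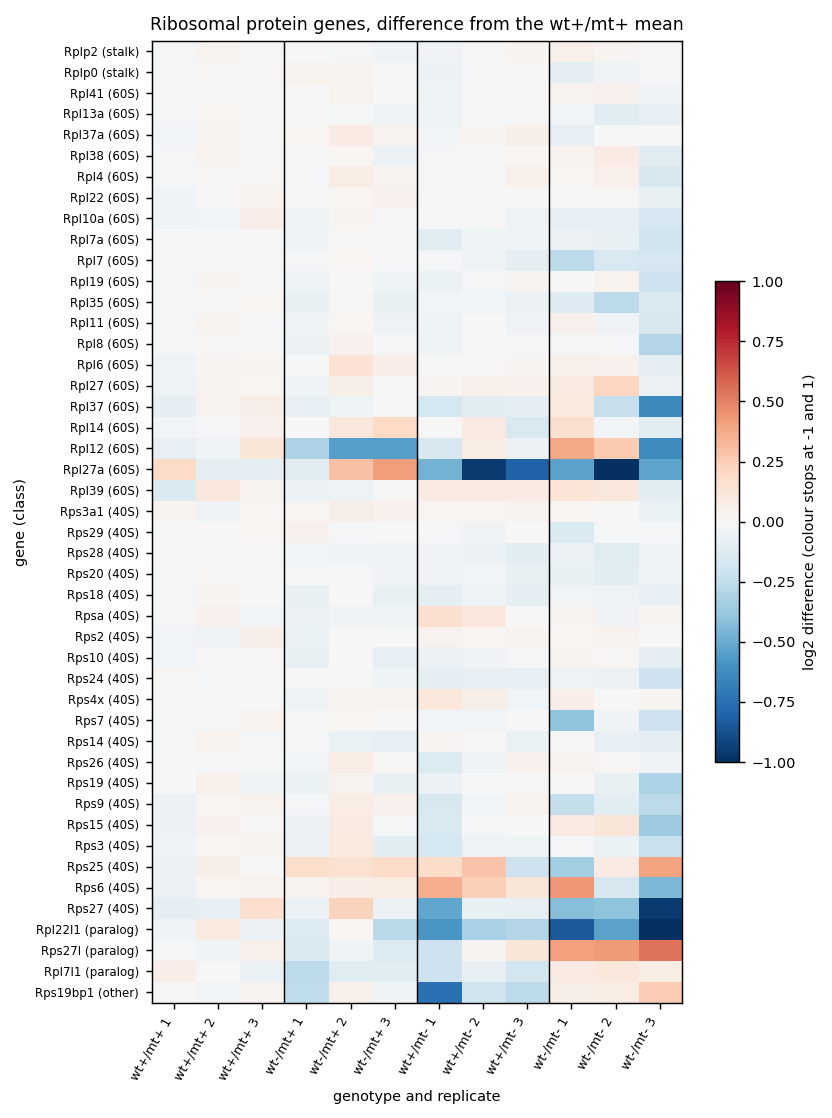
Log2 difference of each of 46 members (rows, by class and then by mean signal) from the wt+/mt+ mean, on each of the 12 arrays (columns, by genotype), with colour that stops at -1 and 1. Most rows stay pale on all arrays, and the stronger colours belong to Rpl27a, Rps27, Rpl22l1, Rps27l, Rpl12, Rpl37, Rps6, Rps25, Rps7 and Rps19bp1.

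The promoters of the 4 members called after loss of both alleles are shown. They come from RefSeq on GRCm38.p6, run 5′ to 3′ from 120 bases before the annotated start to 30 bases from it, and have capitals where a searched motif or a run of at least 6 pyrimidines near the start lies. Rpl22l1 lies at chr3:28805388-28805537 on the plus strand, 1 of the 2 Rps27l starts at chr9:66945966-66946115 on the plus strand, Rps27 at chr3:90213619-90213768 on the minus strand and Rpl27a at chr7:109519075-109519224 on the plus strand.
Rpl22l1: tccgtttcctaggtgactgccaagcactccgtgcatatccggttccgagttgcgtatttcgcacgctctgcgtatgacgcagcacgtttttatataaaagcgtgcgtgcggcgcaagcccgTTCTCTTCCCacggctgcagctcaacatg
Rps27l: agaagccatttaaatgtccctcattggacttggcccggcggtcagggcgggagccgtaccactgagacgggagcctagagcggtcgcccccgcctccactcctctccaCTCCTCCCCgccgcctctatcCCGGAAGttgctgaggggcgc
Rps27: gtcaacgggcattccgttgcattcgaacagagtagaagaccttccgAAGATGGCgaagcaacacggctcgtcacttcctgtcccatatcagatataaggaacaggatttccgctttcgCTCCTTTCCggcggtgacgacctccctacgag
Rpl27a: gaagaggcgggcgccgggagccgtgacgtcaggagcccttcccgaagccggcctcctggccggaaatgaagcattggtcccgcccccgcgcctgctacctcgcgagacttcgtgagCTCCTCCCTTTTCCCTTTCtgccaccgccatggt

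In each of the 4 windows printed, the capitals hold a pyrimidine run near the start. The window of the other Rps27l start, not printed, has neither such a run nor a searched motif. Of the 50 members, 44 matched a RefSeq promoter by symbol, with 52 windows of 300 bases. A pyrimidine run of at least 6 bases within 15 bases of the start was found in 51.9% of these 52, against 29.2% of all 32851 promoter windows. The ETS motif CCGGAAG, on either strand, was in 40.4% of the members' windows and 8.86% of all. The YY1 core AAGATGGC, on either strand, was in 7.69% and 2.75%, and the E-box CACGTG in 9.62% and 7.15%. A forkhead motif, GTAAACA or ATAAACA on either strand, was in 3.85% of the members' windows, those of Rpl41 and Rplp0, and in 7.97% of all. In the windows printed, Rps27l has the ETS motif and Rps27 the YY1 core, and the forkhead letters were in neither these stretches nor the full windows of the 4 genes. The full window of Rpl27a also has the ETS motif, upstream of the stretch printed. None of the spelled motifs contains another, and a match is a description of letters, not a bound site.

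Rpl22l1 gave 14.16, 14.29 and 14.13 (log2 signal) in the wt+/mt+ arrays and 14.06, 14.21 and 13.93 in wt-/mt+. It gave 13.61, 13.87 and 13.90 in wt+/mt- and 13.35, 13.66 and 13.05 in wt-/mt-. All 6 mt- arrays lay below all 6 mt+ arrays, as 5 of 46 members did in 1 direction or the other, against 8.53% of all kept genes. The spiked bioD control also separated these arrays, and its part was not tested. Without either allele Rpl22l1 fell by 0.84 on the log2 scale, a 1.79-fold lower signal (SE 0.15, limma adjusted p = 0.00409), and it is read by 1 probe set. That call held under 1 weight per genotype (adjusted p = 0.0216). Its partner Rpl22 stayed between 15.14 and 15.25 on all 12 arrays, near the top of the range, and changed by -0.021 (SE 0.078, adjusted p = 0.868). Of the other Rpl22 probe sets, that at a mean of 14.57 gave -0.014 (adjusted p = 0.923 over probe sets). The dimmest of the 3, at a mean of 11.12, gave -0.78 (adjusted p = 0.216 over probe sets), which did not pass. The Rpl22 probe sets thus do not settle whether the pair moved apart.

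Rps27l gave 13.58, 13.59 and 13.71 in the wt-/mt- arrays, above each of the other 9, which lay between 12.96 and 13.29. Among members, 7 of 46 separated wt-/mt- from the other 9 arrays, against 15.5% of all kept genes. Rps27l rose by 0.46 after loss of both alleles (SE 0.10, limma adjusted p = 0.0107), a 1.37-fold higher signal. The adjusted p was 0.0877 with 1 weight per genotype, and in the other alternatives run it stayed called. Its other 2 probe sets gave 0.55 and 0.56 (adjusted p = 0.0106 and 0.00517 over probe sets), so all 3 rose.

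Rps27, the zinc-binding small subunit protein that Rps27l resembles, went the other way. It gave 9.20, 9.22 and 8.67 in wt-/mt-, below the 9.54, 9.54 and 9.79 of wt+/mt+, and fell by 0.60 (SE 0.18, limma adjusted p = 0.0344). Rps27 is read alone by 1 dim probe set, at a mean of 9.43. Another probe set names Rps27 together with Rps27rt, was not used, and its value is not given here. Whether Rps27 moved apart from Rps27l thus rests on that dim probe set. Relative to wt+/mt+, Rps27l minus Rps27 was 1.05 ± 0.38 in wt-/mt- (log2, SD, n = 3). It was -0.15 ± 0.11 with only the mutant allele and 0.20 ± 0.10 with only the wild-type allele. The call of Rps27 ended with 1 weight per genotype (adjusted p = 0.147) and without wt+/mt+ replicate 1, 2 or 3 or wt-/mt- replicate 3, where its change lay between -0.64 and -0.42. Rps27 and Rpl22l1 both lie on chromosome 3. Relative to the wt+/mt+ mean, the median over its 560 kept genes was -0.19 in wt-/mt- replicate 3, and 0.094 and 0.077 in replicates 1 and 2. Both genes read lowest on that replicate 3 array, and the part of the chromosome was not tested.

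Rpl27a gave 9.74, 9.45 and 9.46 in wt+/mt+ and 9.45, 9.84 and 9.97 in wt-/mt+. It gave 9.08, 8.59 and 8.75 in wt+/mt- and 9.02, 8.13 and 9.03 in wt-/mt-, so both mt- genotypes lay below both mt+ genotypes. Such a separation was found for 5 of 46 members, against 8.53% of all kept genes. The bioD control also separated these arrays, and its part was not tested. Without either allele Rpl27a fell by 0.83 (SE 0.24, limma adjusted p = 0.0316). The call was the least steady of the 4: it ended in 9 of 22 alternatives, among them without wt+/mt+ replicate 1, 2 or 3 or wt-/mt- replicate 2, where the change lay between -0.88 and -0.53. A further probe set of Rpl27a, at a mean of 4.82, did not pass the filter.

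Rpl7l1, a nucleolar relative of Rpl7 that acts in ribosome assembly, read 10.63, 10.66 and 10.63 in wt-/mt-, just above the 10.62, 10.55 and 10.49 of wt+/mt+. The arrays of the single-allele genotypes lay lower, between 10.29 and 10.47. The change after loss of both alleles was 0.086 (SE 0.086, limma adjusted p = 0.492), and those against the single-allele genotypes, 0.24 and 0.25, did not pass either (adjusted p = 0.0807 and 0.0595). Its other 2 probe sets gave larger values that did not pass, 0.39 and 0.37 after loss of both alleles (adjusted p = 0.156 and 0.125 over probe sets) and 0.41 to 0.56 against the single-allele genotypes. Rpl39, at the exit tunnel of the large subunit, changed by 0.047 (adjusted p = 0.761), and its paralog Rpl39l did not pass the filter.

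**Figure D3:**
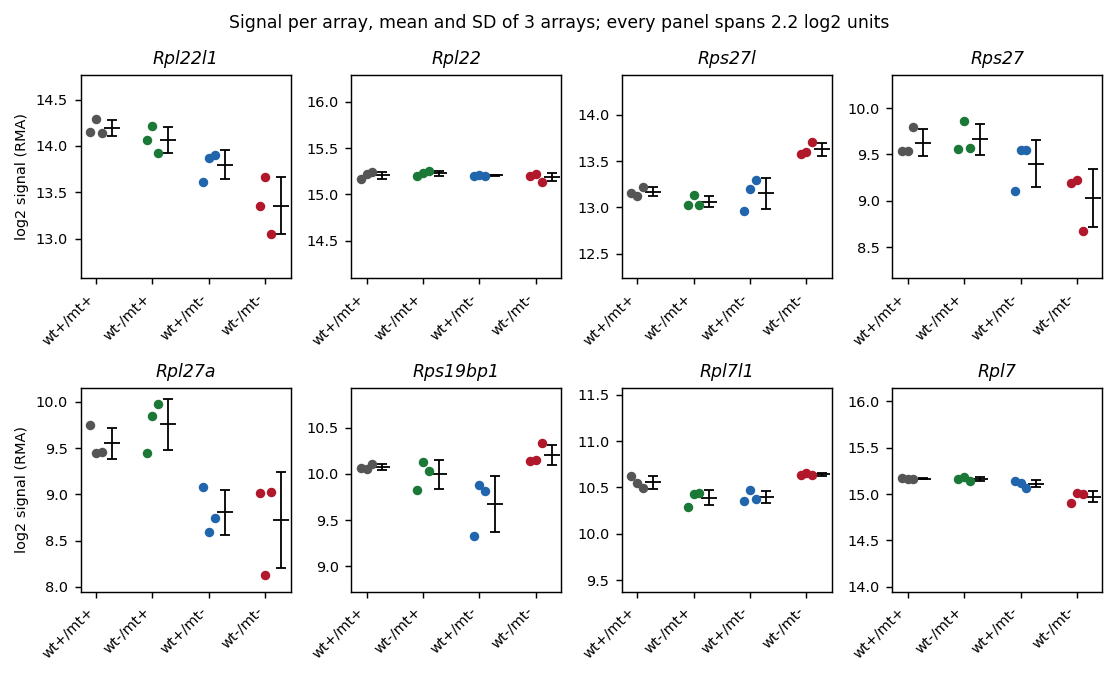
Log2 signal of 8 members on each array by genotype, with the mean and SD of 3 arrays as bars, in panels that each span 2.2 log2 units. Rps27l stands high and Rps27 low in wt-/mt-, Rpl22l1 and Rpl27a are lower in both mt- genotypes, and Rpl22 hardly varies.

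With 1 allele left, no member passed the test against wt+/mt+, and most changes were small. Where the wild-type allele was lost and the mutant allele kept (wt-/mt+ against wt+/mt+), limma called 0 members and 0% of all kept genes. An unadjusted p under 0.05 was found for 0 members and 412 genes. Weighting by genotype called 0 members, against 0.166% of all kept genes, and 6 members (13%) had groups without overlap, against 21.5%. The median change was -0.015, and the changes ran from -0.47 for Rpl12 to 0.20 for Rpl27a. Where the mutant allele was lost and the wild-type allele kept (wt+/mt- against wt+/mt+), limma called 0 members, against 0.183% of all kept genes (0.113% higher and 0.0698% lower). Here 3 members had an unadjusted p under 0.05, as did 1704 of all kept genes. Groups without overlap were found for 13 members (28.3%), 12 lower and 1 higher, against 33.2% of all kept genes. The median was -0.023. Rpl27a changed by -0.75 (SE 0.24, adjusted p = 0.167) and Rpl22l1 by -0.40 (SE 0.15, adjusted p = 0.243). With 1 weight per genotype, which called 8.29% of all kept genes here, those 2 members were called (adjusted p = 0.0243 and 0.0429). The wt+/mt- and wt+/mt+ arrays also lay apart in the bioD control, and some wt+/mt- arrays had high actin ratios. The part of either in these values was not tested.

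The cells with only the mutant allele were then set against those that kept only the normal one, as wt-/mt+ minus wt+/mt-. Limma called 0 members, against 0.0873% of all kept genes (0.0349% higher and 0.0524% lower). An unadjusted p under 0.05 was found for 2 members, against 1881 of all kept genes, and the median change of members was 0.021. Groups without overlap were found for 13 members (28.3%), against 31.8% of all kept genes. Rpl27a had the largest difference, 0.95 higher in wt-/mt+ (SE 0.24, adjusted p = 0.115). The bioD control also separates the arrays of these genotypes, and its part was not tested. The call of Rpl27a was made with 1 weight per genotype (adjusted p = 0.0147, 1 member called against 7.29% of all kept genes) and without wt-/mt- replicate 2 (1 member called).

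The comparisons of wt-/mt- with each single-allele genotype share the wt-/mt- arrays with the comparison above, so their values are given beside it and add no independent support. By label, wt-/mt- differs from wt-/mt+ in the mutant allele alone. The bioD control also separates the arrays of these genotypes, and its part was not tested. Against wt-/mt+, 4 of 46 members were called (8.70%, against 20.8% of all kept genes). Of these 1 was higher, against 9.71%, and 3 were lower, against 11.1%. They were Rps27l (0.57, SE 0.10, limma adjusted p = 0.00383), Rpl22l1 (-0.71, SE 0.15, adjusted p = 0.00904), Rpl27a (-1.03, SE 0.24, adjusted p = 0.0134) and Rps27 (-0.64, SE 0.18, adjusted p = 0.0277). The median change was -0.055, against 0.0105 for all kept genes, and was -0.0079 without wt-/mt- replicate 3. In all, 17 members (37%) had groups without overlap, against 35%. With 1 weight per genotype, which called 8.06% of all kept genes, and likewise without wt-/mt+ replicate 2 or 3, Rpl22l1 and Rps27l made up the 2 members called.

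By label, wt-/mt- differs from wt+/mt- in the wild-type allele alone, but replicates 1 and 2 of wt+/mt- also had high actin ratios. Against wt+/mt-, 2 members were called (4.35%, against 14.6% of all kept genes). Both were higher, against 6.35%, and 0 were lower, against 8.23%. In 7 members (15.2%) the groups did not overlap, against 25.7%. Rps27l rose by 0.48 (SE 0.10, limma adjusted p = 0.0127), and Rps19bp1 rose by 0.53 (SE 0.14, adjusted p = 0.0340). Rps19bp1 was lowest in wt+/mt-, at 9.33, 9.88 and 9.81, and replicate 1 of that genotype, which also had the highest actin ratio, was its lowest array. Rpl22l1 changed by -0.44 (SE 0.15, adjusted p = 0.0761) and did not pass. With 1 weight per genotype (3.48% of all kept genes called), with the actin ratio as a covariate and without wt+/mt- replicates 1 and 2 together, 0 members were called, and in the last of these the remaining array was assumed to vary like the other groups. Without wt-/mt- replicate 2 there were 4, and without wt+/mt+ replicate 1, 2 or 3, wt-/mt+ replicate 3, wt+/mt- replicate 1 or wt-/mt- replicate 3 there was 1, Rps27l.

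**Figure D4:**
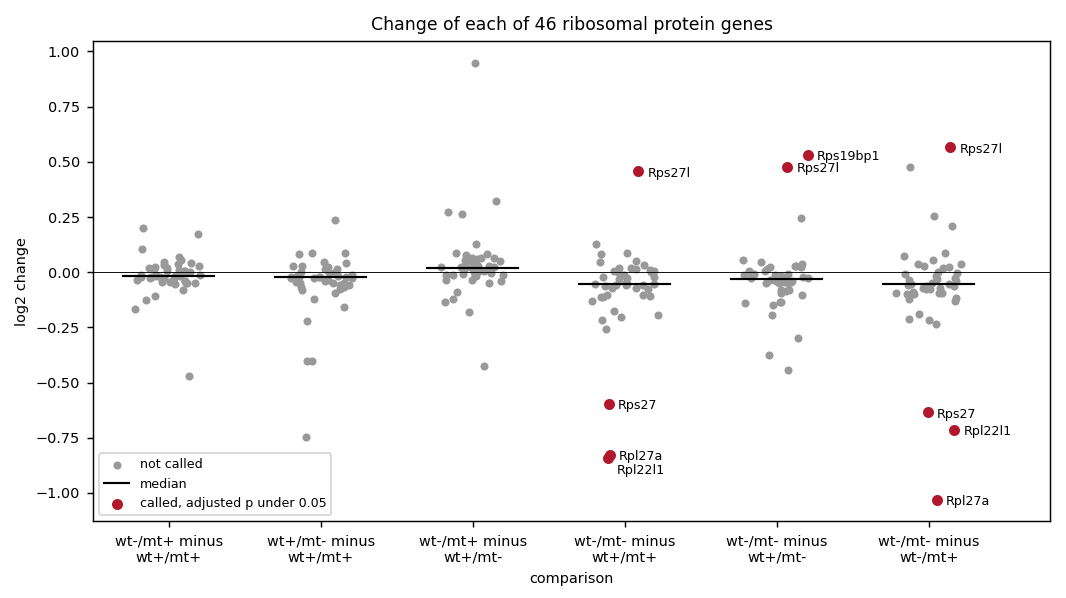
Log2 change of each of 46 members in the 6 comparisons of genotypes, with called members in red and named, other members in grey and the median as a line. The medians lie between -0.055 and 0.021, and called members appear only in the 3 comparisons that hold wt-/mt-.

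Over the 4 genotypes, the limma F test called 3 of 46 members, Rps27l (adjusted p = 0.0111), Rpl22l1 (adjusted p = 0.0127) and Rpl27a (adjusted p = 0.0215), against 19.2% of all kept genes. With 1 weight per genotype, which called 13.4%, Rpl22l1, Rpl27a and Rpl12 had adjusted p = 0.0247, 0.0137 and 0.0415, and Rps27l 0.0962. The interaction of both losses asks whether losing an allele does more when the other is gone. It called 0 members by limma, against 3.14% of all kept genes (0.838% higher and 2.3% lower, and 3.14% with 1 weight per genotype). An unadjusted p under 0.05 was found for 3 members, against 2104 of all kept genes. Among members the smallest p was that of Rps27l, with an interaction of 0.59 (SE 0.14, adjusted p = 0.0549). It passed after quantile normalization, with the mean of all probe sets, with probe sets without a cross-hybridisation suffix, after centring per chromosome and without wt+/mt- replicate 3 or wt-/mt- replicate 1 or 2. Without wt-/mt- replicate 1 the interaction of Rps6 passed too, 2 members in all. Without wt-/mt- replicate 3, 1 member passed, Rpl12 in place of Rps27l.

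Probe sets of 1 member did not always agree. Of the 96 single-gene probe sets of members above the filter, 7 were called after loss of both alleles, 3 higher and 4 lower, or 7.29% against 21.0% of all 23752 probe sets. Beyond those of the genes named above, this added a dimmer probe set of Rps9 (-0.38, adjusted p = 0.0210 over probe sets). Against wt-/mt+, Rps9 was split: the same probe set fell by 0.32 (adjusted p = 0.0457) while another, at a mean of 8.33, rose by 0.60 (adjusted p = 0.0203). A further 106 probe sets above the filter name a ribosomal protein together with other genes. After loss of both alleles 2 of these rose and 6 fell, or 7.55% against 21.0% of all probe sets, with a median change of -0.081. Against wt+/mt+, wt-/mt+ and wt+/mt- gave 0 called probe sets of this kind, against 0% and 0.282% of all probe sets.

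The genes that assemble ribosomes were read from lists beside the ribosomal proteins. Of 30 factors of the large subunit, 5 rose and 1 fell in wt-/mt- against wt+/mt+ (20% called, against 22.1% of all kept genes), with a median of 0.20. Grwd1, a chaperone of Rpl3, rose by 0.69 (SE 0.14, limma adjusted p = 0.00676), and Znhit6 by 0.67 (SE 0.16, adjusted p = 0.0130). Nop2, a methyltransferase of ribosomal RNA, rose by 0.62 (SE 0.19, adjusted p = 0.0406), and Zfp622, a late 60S maturation factor, fell by 0.90 (SE 0.11, adjusted p = 0.000530). Of 27 factors of the small subunit, 4 rose and 1 fell (18.5%, median 0.12). Tsr2, the chaperone of Rps26, rose by 0.85 (SE 0.24, adjusted p = 0.0287), and Utp20, of the early small subunit precursor, rose by 0.71 (SE 0.16, adjusted p = 0.0113). Rps26 itself changed by 0.0021 (SE 0.083, adjusted p = 0.99). Weighted by genotype, 2 of the 60S factors (Znhit6 and Zfp622, or 6.67%) and 0 of the 40S factors were called, against 7.56% of all kept genes.

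Of 25 other transcripts with a 5' TOP tract, 4 fell and 0 rose after loss of both alleles (16% called, median -0.11, against 22.1% of all kept genes and 9.94% lower). Pfdn5, a prefoldin subunit, fell by 0.77 (SE 0.21, limma adjusted p = 0.0240), Btf3, of the nascent chain complex, by 0.53 (SE 0.14, adjusted p = 0.0206), and the initiation factor subunits Eif3f and Eif3h by 0.43 and 0.41 (adjusted p = 0.0372 and 0.0483). Weighted by genotype, Pfdn5 alone was called (4%, against 7.56% of all kept genes). Of 16 regulators of TOP translation, 2 rose (12.5% called, median 0.20, against 12.2% of all kept genes higher): Rptor, the scaffold of mTORC1, by 0.52 (SE 0.099, adjusted p = 0.00550), and Eif4g2 by 0.30 (SE 0.097, adjusted p = 0.0480). Among 15 genes of RNA polymerase I, which transcribes ribosomal RNA, Rrn3 rose by 0.55 (adjusted p = 0.0279) and 4 fell, with a median of -0.10 (33.3% called, against 22.1% of all kept genes). Of these, Polr1d fell by 0.59 (adjusted p = 0.00974). Weighted by genotype, 0 genes of these last lists, the TOP regulators and the polymerase I genes, were called, against 7.56% of all kept genes. Fau, which encodes the ribosomal protein eS30 fused to a ubiquitin-like domain and lies outside the symbol rule, changed by -0.080 and was not called.

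The 76 mitochondrial ribosomal proteins, encoded by another set of nuclear genes, had a median change of 0.10 in wt-/mt- against wt+/mt+. Of these 5 rose and 2 fell (9.21% called, against 22.1% of all kept genes). When weighted by genotype 2 were called (2.63%, against 7.56% of all kept genes). Against wt+/mt- their median was 0.29 with 14 higher and 1 lower (19.7%, against 14.6% of all kept genes). In that comparison 0 were called when weighted by genotype, against 3.48% of all kept genes. The cytosolic group had a median of -0.032 there, which was 0.0032 without wt-/mt- replicate 3. Relative to wt+/mt+, the median of the mitochondrial group was -0.32 in wt+/mt- replicate 1 and -0.075 in replicate 2, the arrays with high actin ratios, and -0.0044 in replicate 3. The medians of the cytosolic group on those arrays were -0.039, -0.0060 and -0.016. The part of the actin ratio in these values, and the difference between the groups, were not tested.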

How the data were processed

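RNA of 12 samples was hybridised to Affymetrix mouse arrays after a 3' IVT kit, per the labels' protocols. The submitters' processing notes name RMA, without a version, for the deposited log2 values. The base of the logarithm was read from the usual output of RMA and the range of 3.09 to 15.57. RMA normalizes across arrays, so a shift shared by most genes is largely removed. Of 45101 probe sets, 34958 name 1 gene in GEO's platform annotation, 932 several and 9211 none; control probe sets were left out. Symbols were updated through a RefSeq table (GRCm38.p6), with 162 kept as listed. Each gene took its brightest probe set and was kept when that lay above the array median in at least 3 arrays.

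The test was limma's (version 3.58.1, R 4.3.3), with a mean for each genotype over all 12 arrays and eBayes. A gene was called when its p, adjusted by Benjamini-Hochberg across every kept gene, was under 0.05. Changes carry limma's SE and levels the SD of 3 arrays. The number of arrays limits the precision. The fit was tested on simulated data in which all genes of a genotype shared the same spread and the changes put in were larger than those of most members. That run does not show how the fit treats the smaller changes. Members and lists were chosen with earlier results of these data known. Named genes were the called members, members of known role, the 3 brightest and dimmest, members with called probe sets of opposite sign, and up to 4 called genes a list. Alternatives were weights, scalings, filters, probe set choices, an actin covariate and arrays left out. Centring per chromosome and fits of single probe sets were chosen after seeing the data. No protein sequences were used here.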

Additional observations from a re-analysis of the deposited data

How the results depend on the processing

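Across 22 alternatives, the falls of Rpl22l1 after loss of both alleles and against wt-/mt+ and the rise of Rps27l against wt-/mt+ kept their direction and stayed called (adjusted p at most 0.0235, 0.0452 and 0.0446). Counts of called members moved with several settings. With 1 weight per genotype they were 1 after loss of both alleles, 2 for the mutant allele lost with the wild-type allele present, 1 between the single-allele genotypes, 0 against wt+/mt- and 2 against wt-/mt+. Against wt+/mt- the count was also 0 with the actin covariate and without wt+/mt- replicates 1 and 2. For the interaction it was 1 after quantile normalization, with mean probe sets, without suffixed probe sets and with chromosomes centred. Leaving out 1 array gave 2 to 5 members after loss of both alleles, 1 to 4 against wt+/mt-, 2 to 6 against wt-/mt+, 0 to 2 for the interaction and 0 to 1 between the single-allele genotypes. It moved the median change of members to -0.074 to -0.0085 after loss of both alleles, -0.054 to 0.0032 against wt+/mt-, -0.072 to -0.0079 against wt-/mt+, -0.035 to -0.0098 and -0.029 to -0.0030 after loss of the mutant or wild-type allele alone, and 0.0051 to 0.029 between the single-allele genotypes. With arrays centred on their medians the median change of members was -0.13 after loss of both alleles, -0.10 and -0.047 after loss of the mutant or wild-type allele alone, and 0.069 between the single-allele genotypes. After quantile normalization the median for the mutant allele lost was 0.0023. With chromosomes centred it was -0.077, and -0.051 for the wild-type allele lost. The causes were not tested. No paired analysis was possible because the array numbers in the labels run from 1 to 12 with none shared between genotypes.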

Other observations

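The array's probe sets for 18S ribosomal RNA, which the report's comparisons do not use, averaged 12.90 ± 0.17 on the wt+/mt+ arrays and 12.85 ± 0.18 on those of wt-/mt+ (log2, SD, n = 3). The averages were 12.50 ± 0.52 for wt+/mt- and 12.48 ± 1.42 for wt-/mt-. The 3 arrays of wt-/mt- read 12.37, 11.11 and 13.94, so they held both the lowest and the highest value of all 12. Ribosomal RNA has no long poly(A) tail, and a 3' IVT kit primes on one, so this signal does not measure its amount. The array with the highest value, wt-/mt- replicate 3, also had the lowest median of the cytosolic ribosomal proteins relative to wt+/mt+, at -0.10, against -3.33e-05 and -0.022 in replicates 1 and 2.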
